A study of Mus musculus with 4 samples.

Results

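The data are the contrast of 2 pooled brain DNA samples on CpG island arrays: the array labelled TiO2-H male over the Sham female array. These are the 2 of the 4 arrays of the series on which input DNA at X-linked probes was as bright as at autosomal probes. Members of the contrast were autosomal regions, each a run of probes with gaps of up to 1000 bp and at least 3 kept probes. A probe was kept when the input signal (Cy3) passed the scanner software's test of being well above background on both arrays, and the MeDIP signal (Cy5) passed it on at least 1. Of 14178 autosomal regions on the array, 13091 had 3 or more probes, and 8917 were kept. They held a median of 4 kept probes and spanned a median of 811 bp.

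The pools were made from the whole brains of C57BL/6 offspring, born to C57BL/6J dams, on day 1 after birth. Dams of the TiO2-H group received titanium dioxide nanoparticles at 100 ug per mouse through the trachea, and dams of the Sham group received vehicle, which was the filtrate of the particle suspension. Sample names place the exposure on gestational day 14 and the treatment protocol places it on day 10.5. DNA of 2 offspring from each of 5 dams went into the Sham female pool, and DNA of 2 offspring from each of 6 dams into the TiO2-H male pool. Each group was 1 pool on 1 array, so there was no replicate, no test was possible, and the spread between litters was not measured.

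In mammals the cytosine of a CG dinucleotide can carry a methyl group. CpG islands are short stretches dense in CG, often at gene starts, and most of them stay unmethylated in somatic tissue. Known exceptions are islands of germline genes, which are silenced by methylation in somatic cells, and the differentially methylated regions of imprinted genes, where 1 parental copy is methylated. MeDIP is the capture of single-stranded DNA with an antibody against 5-methylcytosine. The level of a region is given here as the log2 ratio of MeDIP over input signal, centred on the autosomal median of its array and taken as the median over its kept probes. The fold is the median of the per-probe differences, so it can differ from the difference of the 2 levels. "Rose" and "fell" are used only for regions past the study's limits of 1.5-fold and 0.67-fold.

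X-linked input lay 0.03 above autosomal input (log2) on both arrays of the pair, whereas it lay 0.75 below on Sham male and 0.74 below on the array with the TiO2-H female label. The 2 TiO2-H labels therefore ran opposite to the Sham labels, and the reason was not tested. By X-linked input the 2 arrays of this pair were alike, although their labels name different sexes. The names TiO2-H male and TiO2-H female are the labels as given, and the sex of the pools was not settled. The description field of all 4 samples speaks of male mice and vehicle, whereas their titles give the 4 groups. The array labelled TiO2-H male lay on slide 1 at position 2 and the Sham female array on slide 2 at position 1, so that exposure, labelled sex, slide and position cannot be told apart in this pair.

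MeDIP signal differed between the arrays before any region was compared. Cy5 was well above background for 58.8% of autosomal probes on the Sham female array and for 24.6% on the TiO2-H male array. The spread of the centred ratios (median absolute deviation) was 0.60 on the Sham female array, the lowest of the 4, against 0.91 on the TiO2-H male, 1.04 on the TiO2-H female and 1.08 on the Sham male array. The part of these differences in the folds was not tested.

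The sequences of 4 promoters are shown because their regions had high and low levels on these arrays. Ddx4 and Dazl encode RNA helicase and RNA-binding proteins of germ cells, and their islands had high levels on both arrays. Psma1 encodes a subunit of the proteasome core and Cxcl12 a chemokine that guides migrating cells, and their regions fell. Each sequence runs 5′ to 3′ from 250 bases before to 50 bases after the gene start in RefSeq, with CG in capitals. The array positions are on mm9, so the sequences were not laid over the probes.
Ddx4 (GRCm38.p6, chr13:112652261-112652560, minus strand): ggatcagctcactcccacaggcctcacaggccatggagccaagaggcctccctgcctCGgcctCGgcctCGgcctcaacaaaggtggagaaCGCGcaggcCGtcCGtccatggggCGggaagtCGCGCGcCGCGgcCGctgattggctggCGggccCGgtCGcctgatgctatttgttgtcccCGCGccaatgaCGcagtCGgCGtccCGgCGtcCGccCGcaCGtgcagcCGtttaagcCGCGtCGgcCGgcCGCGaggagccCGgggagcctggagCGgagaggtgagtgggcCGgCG
Dazl (GRCm38.p6, chr17:50293571-50293870, minus strand): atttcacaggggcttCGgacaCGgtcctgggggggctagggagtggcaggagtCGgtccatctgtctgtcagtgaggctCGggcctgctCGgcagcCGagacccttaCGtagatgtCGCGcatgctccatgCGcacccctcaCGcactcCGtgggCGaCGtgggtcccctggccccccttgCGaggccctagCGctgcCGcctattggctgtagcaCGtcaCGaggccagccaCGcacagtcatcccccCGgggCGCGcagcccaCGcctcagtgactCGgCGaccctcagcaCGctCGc
Psma1 (GRCm38.p6, chr7:114276067-114276366, minus strand): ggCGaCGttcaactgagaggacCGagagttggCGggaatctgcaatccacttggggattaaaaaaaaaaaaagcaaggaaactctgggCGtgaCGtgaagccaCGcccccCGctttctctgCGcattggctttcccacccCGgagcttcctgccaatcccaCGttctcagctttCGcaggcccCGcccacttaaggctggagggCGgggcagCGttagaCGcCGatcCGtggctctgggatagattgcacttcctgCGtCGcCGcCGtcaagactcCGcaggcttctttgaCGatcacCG
Cxcl12 (GRCm38.p6, chr6:117168285-117168584, plus strand): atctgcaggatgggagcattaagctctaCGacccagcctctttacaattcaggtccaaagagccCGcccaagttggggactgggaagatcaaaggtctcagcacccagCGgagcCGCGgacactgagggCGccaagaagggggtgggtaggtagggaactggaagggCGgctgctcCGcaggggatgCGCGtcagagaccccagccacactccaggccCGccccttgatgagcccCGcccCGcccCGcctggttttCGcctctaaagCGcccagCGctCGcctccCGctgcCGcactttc
They hold 38, 28, 25 and 20 CG in this order. Among 32817 promoters of the same length, 94.6% held at least 1 CG, the median was 7, and 4.96%, 14.2%, 18.4% and 26.5% held at least as many as these 4. All 4 promoters are thus dense in CG, including the ones whose regions differed most in level: on the Sham female array the levels were 1.86 for Ddx4, 1.67 for Dazl, −0.12 for Psma1 and 0.02 for Cxcl12. On the TiO2-H male array they were 2.02, 1.54, −1.79 and −1.34 in the same order. The folds of Ddx4 and Dazl were 0.37 and 0.08, but both were below 0 at a common spread of the arrays (−0.44 and −0.46). Cy5 on the TiO2-H male array was well above background at 1 of 5 kept probes of Psma1 and at 2 of 4 of Cxcl12. No bound can be given for Psma1, and the bound for Cxcl12, 1.48-fold, is under the limit for a fall.

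**Figure D1:**
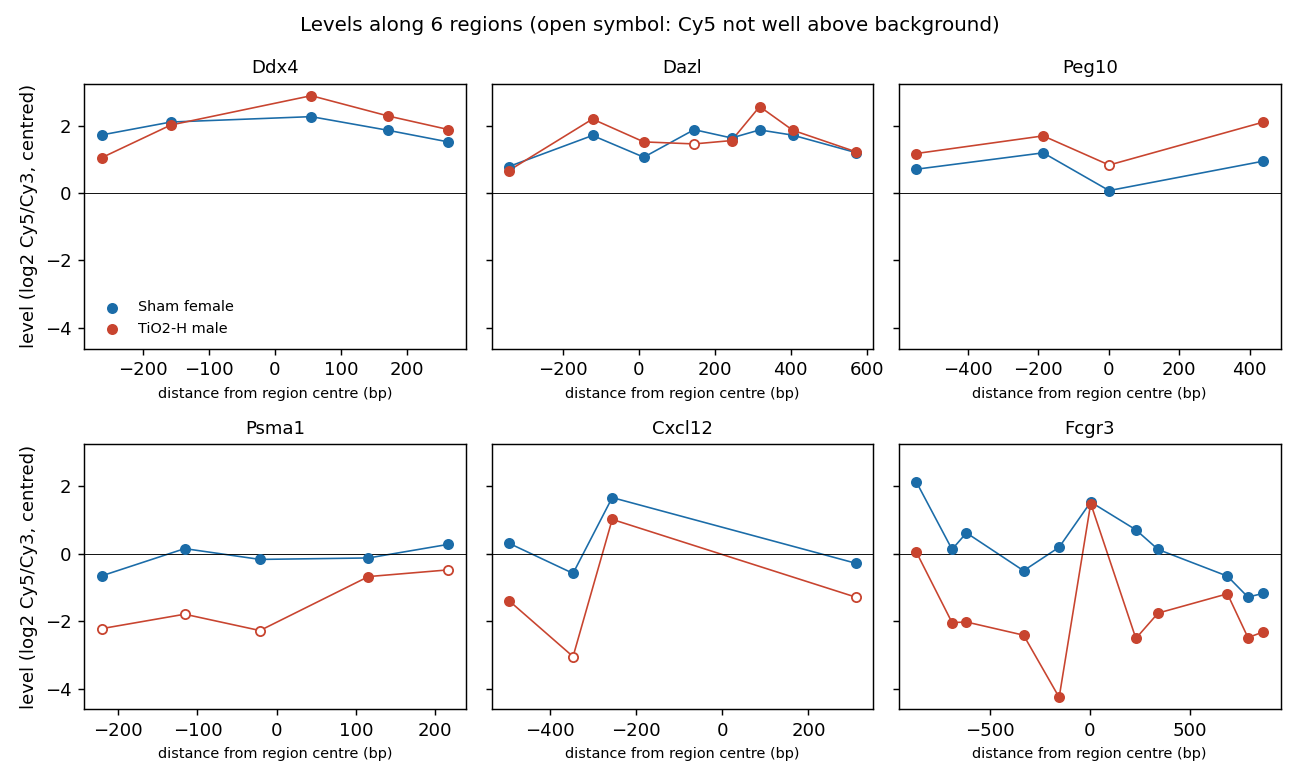
Levels of the kept probes along 6 regions, with the distance from the region centre in bp on the x axis and the centred log2 ratio of MeDIP over input on the y axis, for the Sham female (blue) and TiO2-H male (red) arrays. Open symbols mark probes whose Cy5 was not well above background. The 2 lines run close together over Ddx4 and Dazl, red lies above blue at all 4 kept probes of Peg10, and red lies below blue over Psma1, Cxcl12 and Fcgr3.

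Falls outnumbered rises in this pair. Of 8917 regions, 2981 (33.4%) fell and 21 (0.236%) rose, with a median fold of −0.35 on the log2 scale. The middle 90% of regions ranged from −1.45 to 0.22. Both kinds of region lay on many chromosomes: the share that fell ran from 29.0% on chromosome 19 to 39.3% on chromosome 18, and no chromosome held more than 3 rises. Regions with a study annotation inside a gene fell in 27.7% of 2090 cases, those annotated as promoter in 34.6% of 693, those annotated as divergent promoter in 45.1% of 82 and those annotated as downstream of a gene in 53.3% of 30.

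The falls lay mostly in regions where Cy5 was dim on the TiO2-H male array. Of 50585 kept probes, 29437 had Cy5 well above background on the Sham female array alone, 21058 on both and 90 on the TiO2-H male array alone. The median fold was −0.74 over the first of these and 0.00 over the second. Probes of the first group were kept through the Sham female array, where they were bright, so the filter favoured lower values on the TiO2-H male array, and 84.6% of these probes were lower there. Without any filter on Cy5, a setting added after seeing the data, 12808 regions were kept, of which 2046 (15.97%) fell and 588 rose, with a median fold of −0.11. The number of rises and the share of falls in this pair therefore rest on the filter. In 1173 regions no kept probe was measured on both arrays, and 796 of them (67.9%) fell. In the 445 regions where every kept probe was measured on both, 30 (6.74%) fell, 5 (1.12%) rose and the median fold was 0.01. When only probes measured on both arrays were used, 2760 regions had 3 or more of them, of which 170 (6.16%) fell and 19 (0.688%) rose.

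**Figure D2:**
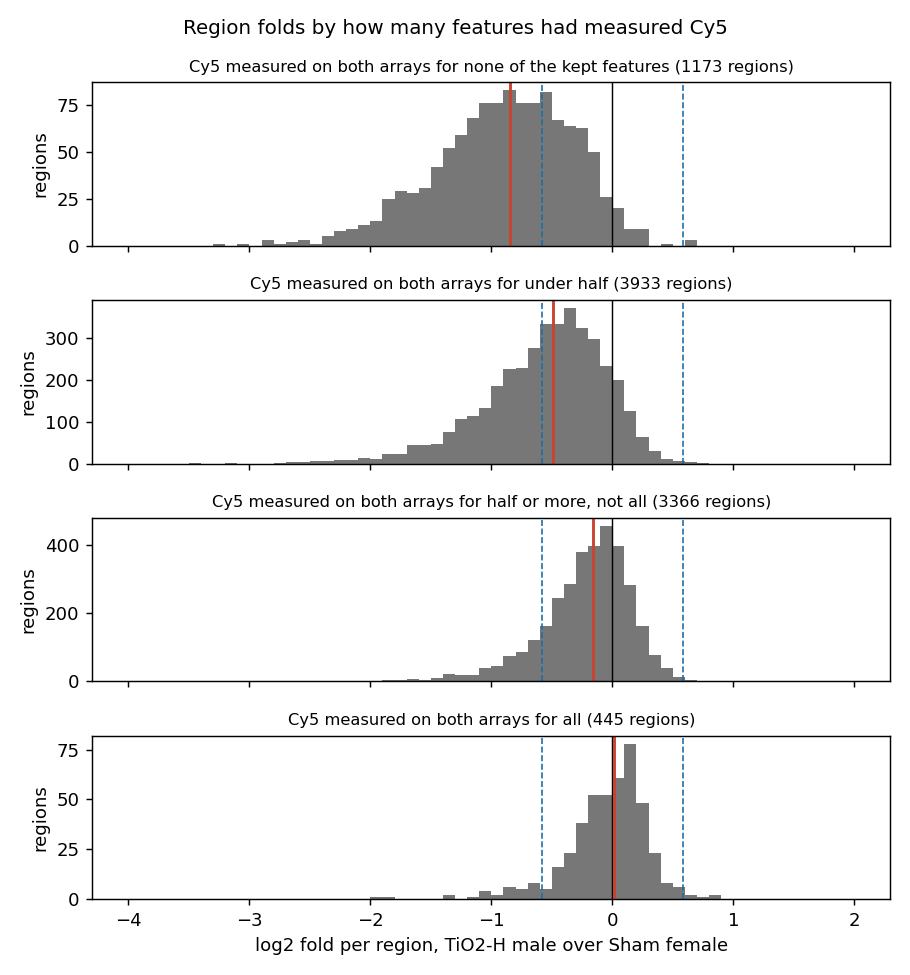
Histograms of region folds (log2, TiO2-H male over Sham female) in 4 classes by the share of kept probes whose Cy5 was well above background on both arrays. The red line is the median of the class, the dashed lines are 1.5-fold and 0.67-fold and the black line is 0. The median moves from −0.85 where no probe was measured on both to 0.01 where all were.

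A dim signal gives only a limit. Cy5 of dim probes was raised to the lowest well-measured signal of their array, which was 837 on the TiO2-H male and 507 on the Sham female array. Then 309 regions (3.47%) still lay at or past 0.67-fold. They were lower by at least that much on the deposited processed signals. Under another background correction such a bound can fail, as it did for Tubb2b below. For the remaining falls the size rests on signals within background, and in 1718 of them the value lay above 0 under this limit, so that no bound can be given.

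The fold varied with the level of a region on the Sham male array, which is in neither arm of this pair. In the 208 regions with a Sham male level under −2, the median fold was −1.32 and 201 regions fell. The median level of these regions was −0.24 on the Sham female array, −1.72 on the TiO2-H male and −1.87 on the TiO2-H female array. In the 593 regions with a Sham male level over 2, the median fold was −0.04, 54 regions fell and 2 rose, and the median levels were 1.52, 1.45 and 2.23 on the 3 arrays. Almost all of these regions passed through the Sham female array, on which Cy5 was above background for 99.9% of kept probes in the lowest bin against 11.2% on the TiO2-H male array, so the low-bin values are set in part by the filter and are a description. Without a filter on Cy5 the lowest bin had 143 regions and a median fold of −0.82, and the highest had 254 and −0.10. With only probes measured on both arrays the lowest bin held 0 regions and the next 3.

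**Figure D3:**
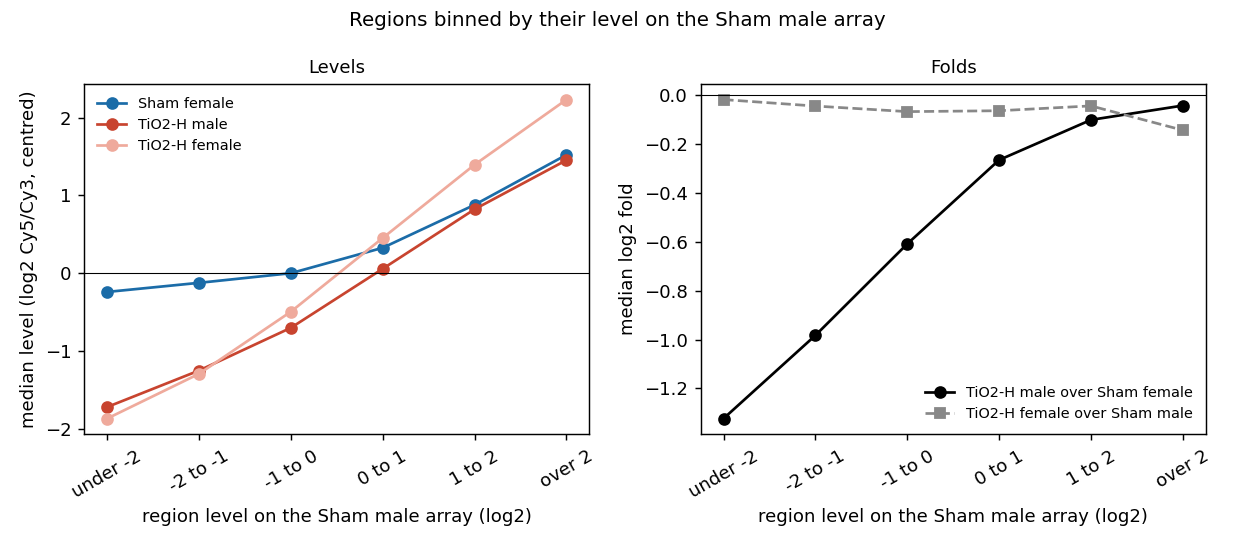
Regions in 6 bins of their level on the Sham male array (x axis, log2). Left, the median level on the other 3 arrays; right, the median log2 fold in this pair (black) and for TiO2-H female over Sham male (grey), in which the Sham male array is itself the denominator. The Sham female line stays between −0.24 and 0.00 over the 3 lowest bins, where the black fold line runs from −1.32 to −0.61. Regions of the low bins were kept almost entirely through the Sham female array.

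Among the 4 arrays, the Sham female level was the highest in 2298 of the 2981 falls (77.1%), and the TiO2-H male level was the lowest in 1859 (62.4%). Over all 8917 regions these shares were 38.5% and 52.7%. In the 523 falls with at least 50% of the kept probes measured on both arrays, the Sham female level was the highest in 270 (51.6%) and the TiO2-H male level the lowest in 441 (84.3%). Over all 3811 regions so measured these shares were 14.3% and 53.0%. At a common spread of the arrays they were 80.3% and 87.0% in the 523 falls, and 53.1% and 66.9% in the 3811 regions. In the 21 rises the Sham female level was the lowest of the 4 arrays in 14, and the TiO2-H male level was the highest in 8. A fall requires the Sham female level to exceed the TiO2-H male level at most probes, so these counts describe where the other 2 arrays lay and are no test.

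Germline genes had high levels on both arrays, and 6.25% of their regions fell, against 33.4% of all regions. With only probes measured on both arrays the shares were close, as 1 of 14 germline regions fell (7.14%), against 6.16% of all regions. The list had 16 kept regions of 16 genes, whose median level was 1.68 on the Sham female, 1.70 on the TiO2-H male, 1.76 on the Sham male and 2.10 on the TiO2-H female array. Their median fold was −0.06 against −0.35 over all regions, 0 rose and 1 fell, but with both arrays scaled to a common spread the medians were −0.68 and −0.58 and 9 of the 16 fell (56.2%), as did 50.4% of all regions. Cy5 was well above background on the TiO2-H male array for 83.8% of their kept probes. Sycp1, a protein of the synaptonemal complex, read 1.57 on the Sham female and 1.93 on the TiO2-H male array, a fold of 0.26 (log2), which was −0.35 at a common spread. Ddx4 had a fold of 0.37, or −0.44 at a common spread, with all 5 probes measured on both arrays, and the Dazl region (chr17:50431910-50433097, mm9) had a fold of 0.08, or −0.46 at a common spread, with 7 of 8 kept probes so measured. Dpep3, a membrane dipeptidase of the testis, was the region that fell, by 0.96 on the log2 scale, from 2.24 to 1.61 in level. Its fold was −0.15 after normexp and −0.53 after loess, both within the limits. Its symbol came from the study's list of genes with decreased methylation, which was drawn in part from the TiO2-H male array, so this fall is no independent support. Adad1, a testis RNA-binding protein, had a fold of −0.47 with 2 of 3 probes measured on both arrays.

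Imprinted genes had a median fold of −0.01 in 17 regions of 16 genes, with 1 rise and 4 falls (23.5%, against 33.4% of all regions), and of −0.48 with 0 rises and 6 falls (35.3%, against 50.4% of all regions) at a common spread. Their median level was 0.95 on the Sham female and 1.05 on the TiO2-H male array. Peg10, a gene of retrotransposon origin expressed from the paternal copy, rose at chr6:4697308-4698444 (mm9), from a level of 0.83 to 1.44, a 1.55-fold rise that became 0.33 on the log2 scale at a common spread. Each of its 4 kept probes was higher on the TiO2-H male array, by 0.47 to 1.16, and its fold was also 0.66 in the other exposure pair, TiO2-H female over Sham male. Grb10, an adaptor that restrains growth factor signalling, had a fold of 0.23, or −0.28 at a common spread, and 0.50 in the other pair.

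The 4 imprinted falls were Gnas, Dio3, Rasgrf1 and Igf2, with folds of −0.76, −0.70, −0.62 and −0.60. Gnas encodes a G protein subunit, Dio3 an enzyme that inactivates thyroid hormone, Rasgrf1 a Ras activator and Igf2 a fetal growth factor. None of them kept a fall once dim Cy5 was raised to the detection limit. Over the probes measured on both arrays, the fold was 0.29 at Gnas, on 7 of 14 kept probes, and 1.17 at Dio3, on 1 of 7. Without a filter on Cy5 the Dio3 value was 0.15, the Gnas value −0.36 and 0 of the 17 imprinted regions fell.

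The highest folds were taken from 712 regions in which all kept probes lay on 1 side of 0 and at least 50% of them were measured on both arrays. Ifnar1, a receptor subunit for type I interferons, had the highest fold of 0.89 at chr16:91485270-91485880 (mm9), with levels of 0.62 on the Sham female and 1.21 on the TiO2-H male array. Its level was 1.40 on the Sham male and 1.49 on the TiO2-H female array, so the Sham female array was the low one of 4. Its 3 kept probes differed by 0.06 to 0.91, and its fold was −0.22 after normexp background correction and 0.48 without a filter on Cy5, under the limit. Hnrnpm, an RNA-binding protein of the splicing machinery, had a fold of 0.83 at chr17:33786780-33787118, with all 3 probes measured on both arrays. Its level was 1.22 on the Sham female and 1.08 on the Sham male array against 2.11 on the TiO2-H male and 2.08 on the TiO2-H female array. At Hnrnpm both TiO2-H arrays lay above both Sham arrays, and the fold in the other pair was 0.74, although the fold here was 0.12 at a common spread and 0.01 after normexp.

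Dgat2, an enzyme of triglyceride synthesis, had a fold of 0.69, with a level of 0.12 on the Sham female array and 1.24 to 1.35 on the other 3. Klhl35, a kelch-family protein, had a fold of 0.61, which was −0.21 at a common spread and 0.54 without a filter on Cy5, and Intu, a planar cell polarity and cilium protein, one of 0.53, which is under the limit. An unnamed region at chr13:55050065-55051500 had a fold of 0.71, or 0.34 without a filter on Cy5. The folds of the unnamed regions that start at chr2:169955855, chr16:91044054 and chr4:9595656 were 0.57, 0.57 and 0.56, also under the limit. In the other pair Ifnar1, Dgat2, Intu and these 4 unnamed regions had folds below 0, from −0.51 to −0.06.

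The 21 regions that rose included 9 with a gene symbol. Beside the ones above these were Ankrd9, Arl2, Unc13a and Chrac1, with folds of 0.69, 0.70, 0.64 and 0.60. Unc13a, which primes synaptic vesicles, and Arl2, a small GTPase involved in tubulin folding, were measured on both arrays at 0 of 4 and 2 of 3 kept probes. Of the 17 rises that were also kept in the other pair, 3 rose there (17.6%), which were Hnrnpm, Peg10 and Ankrd9, against 2.49% of all regions kept in both pairs, and 1 fell there.

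**Figure D4:**
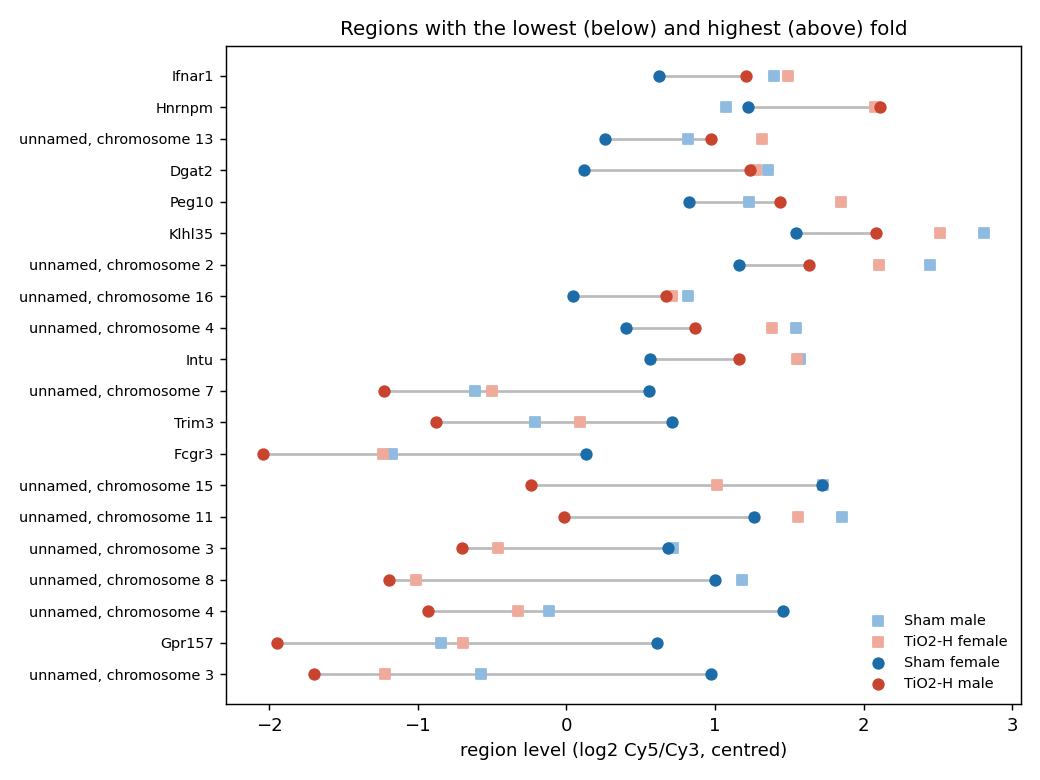
Levels (centred log2 ratio of MeDIP over input) on the 4 arrays for the 10 lowest and 10 highest folds among regions with all kept probes on 1 side of 0 and at least 50% measured on both arrays. Circles joined by a line are the Sham female (blue) and TiO2-H male (red) arrays, and squares are the other 2 arrays. At Hnrnpm both red markers lie above both blue ones, whereas at Ifnar1 and Dgat2 the Sham female array is the lowest of 4.

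Among the largest measured falls, Fcgr3 had the most probes. Fcgr3 is a low-affinity receptor for IgG, and the study's annotation places the region upstream of it, at chr1:172994223-172996003 (mm9). All 11 probes were measured on both arrays, and their folds ran from −4.46 to −0.04 with a median of −1.91, a 3.77-fold fall. The median input signal of this region was 14811 on the TiO2-H male and 18198 on the Sham female array. At the Rn4.5s region, a repeated gene described below, it was 5211 and 7523. Whether the Fcgr3 probes share signal with other sequences was not tested. The level was 0.13 on the Sham female array and −2.04 on the TiO2-H male, −1.17 on the Sham male and −1.23 on the TiO2-H female array, and the other pair had a fold of 0.20. Under the other settings tried, the fold here stayed between −3.14 and −1.55. The Sham female array was thus the high one of 4 and the TiO2-H male array the low one.

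Gpr157, a G protein-coupled receptor, fell by 2.52 on the log2 scale, from 0.61 to −1.94 in level, with 3 of 5 kept probes measured on both arrays. The fall was still 4.77-fold with dim signals at the limit. Trim3, a RING-finger protein of the brain, fell by 1.88 from 0.71 to −0.88, with 4 of 5 probes measured on both. The folds of Gpr157 and Trim3 in the other pair were 0.15 and −0.09. The remaining 7 of the 10 lowest had no symbol. The lowest of them, starting at chr3:14610945, fell by 2.67, and the one at chr7:25266519, where all 3 probes were measured on both arrays, fell by 1.83 with probes from −1.85 to −1.70.

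Of the unnamed regions, 3 also fell in the other pair, which shares no array with this one. They start at chr8:87396203, chr11:61890326 and chr15:98956569, with folds of −2.19, −2.06 and −1.99 here and −1.94, −1.10 and −0.94 there. Their bounds here were 2.17-fold, 1.14-fold and 3.11-fold, so the bound at chr11:61890326 is under the limit for a fall. Over the probes of chr11:61890326 measured on both arrays of this pair the fold was −1.12. At chr8:87396203 the levels were 1.00 on the Sham female and 1.18 on the Sham male array against −1.19 on the TiO2-H male and −1.01 on the TiO2-H female array. Both Sham arrays were above both TiO2-H arrays at this region, with 2 of 3 kept probes measured on both arrays of this pair. The probe folds there ran from −2.41 to −0.33.

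In 1167 regions Cy5 was well above background on no kept probe of the TiO2-H male array, so that any difference there has at most a bound. Of these 793 fell and 3 rose, and the 5 with the strongest bounds are given, as bounds on the deposited processed signals. Tubb2b, a tubulin of migrating neurons, was at least 6.07-fold lower at chr13:34222111-34222504 (mm9), with a median Cy5 signal of 10364 on the Sham female and 547 on the TiO2-H male array. Its level was 1.26 on the Sham female array and −2.17 and −2.02 on the Sham male and TiO2-H female arrays, so it was the Sham female array that stood apart. Cks1b, a partner of cell cycle kinases, was at least 2.88-fold lower and Tmub2, a transmembrane ubiquitin-like protein, at least 2.54-fold lower. The unnamed regions that start at chr17:32487319 and chr18:80403331 were at least 2.32-fold and 2.26-fold lower. After normexp background correction the log2 folds were −1.93 for Tubb2b, −0.94 for Cks1b, −0.68 for Tmub2 and −0.90 for chr17:32487319, all smaller in size than their bounds, and without a filter on Cy5 the value of chr18:80403331 was 0.17, so these bounds hold for the chosen processing.

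Housekeeping genes, whose islands are usually unmethylated, had low levels. The list had 35 regions, of which 0 rose and 16 fell (45.7%, against 33.4% of all regions), with a median fold of −0.52 against −0.35. At a common spread 17 fell (48.6%, against 50.4%), and the medians were −0.53 and −0.58. Without a filter on Cy5 11 fell (31.4%, against 15.97%). Its median level was 0.03 on the Sham female array and −0.63 on the TiO2-H male, −0.75 on the Sham male and −0.67 on the TiO2-H female array. Rpl31 and Rpl8, proteins of the large ribosomal subunit, fell by 2.13 and 2.09. Psma1 fell by 1.57 and the glycolytic enzyme gene Gapdh by 1.22. In none of the 16 did the fall reach the limit once dim Cy5 was raised, and the bound was 1.17-fold for Rpl31 and 1.40-fold for Rpl8. Psmd7, a proteasome lid subunit, and Eif4a3, a helicase of the exon junction complex, had folds of 0.16 and 0.33, of 0.07 and −0.26 at a common spread, and of −1.04 and −0.62 after normexp, past the limit for a fall. The symbol patterns of this list also take in the kinases Eif2ak1 and Rps6ka4.

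Patterning transcription factors, which set regional identity in the embryo and whose islands are often held by Polycomb rather than by methylation, had 102 regions of 86 genes. Of these 30 fell (29.4%, against 33.4% of all regions) and 0 rose, with a median fold of −0.32, which is near the −0.35 of all regions. At a common spread 41 fell (40.2%, against 50.4%), and after normexp 43 fell (42.2%, against 35.4%), so the side of this difference depends on the processing. Gata4 and Gsx2 were lowest, at −1.69 and −1.52. Gsx2, a factor of the ventral forebrain, read −0.55 on the Sham female array and −1.77 on the TiO2-H male, −1.44 on the Sham male and −1.65 on the TiO2-H female array. Bounds were 1.22-fold for Gata4 and 1.07-fold for Gsx2, and with dim Cy5 raised 0 of the 102 regions fell. Six6, a homeobox gene of the developing eye and pituitary, was at the high end with a fold of 0.16, or −0.02 at a common spread.

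Genes of synapses and ion channels had 65 regions, with 14 falls (21.5%, against 33.4% of all regions), 0 rises and a median fold of −0.20. At a common spread 30 fell (46.2%, against 50.4%), with a median of −0.53 against −0.58. The potassium channel genes Kcnf1 and Kcnc2 were lowest, at −1.45 and −1.43, with Cy5 above background on the TiO2-H male array at none of their kept probes. Kcnk10, a potassium leak channel, and Dlg5, a scaffold protein, were highest, both at 0.39, but at −0.39 and −0.35 at a common spread. The Dlg5 region was measured on both arrays at all 4 probes, with levels of 1.18 on the Sham female and 1.64 on the TiO2-H male array. The 8 protocadherin regions, cell adhesion genes of neurons, had a median of −0.31. Pcdh7 and Pcdhga12 fell by 0.91 and 0.73, and Pcdh10 and Pcdhac2 had folds of 0.03 and −0.18. The Pcdh10 value was −0.31 at a common spread, and without a filter on Cy5 the Pcdh7 and Pcdhga12 values were −0.10 and −0.30, within the limits.

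Genes of xenobiotic metabolism, oxidative stress and inflammation had 36 regions, with 9 falls (25.0%, against 33.4% of all regions), 0 rises and a median of −0.24. At a common spread 18 fell (50.0%, against 50.4%), with a median of −0.56 against −0.58. Il17b, a cytokine, fell by 2.55 with no TiO2-H male probe above background and a bound of 1.58-fold. Cxcl12 fell by 1.36, had −0.36 without a filter on Cy5, which is within the limits, and had a fold of 0.14 in the other pair. Sod3, the extracellular superoxide dismutase, and Il4i1, an amino acid oxidase of immune cells, had folds of 0.29 and 0.23, and of −0.29 and −0.67 at a common spread.

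The DNA methylation machinery had 9 regions, with 3 falls (33.3%, against 33.4% of all regions) and a median of −0.32, against −0.35. Gadd45g and Gadd45a, stress-induced genes linked to DNA repair and demethylation, fell by 1.48 and 1.12. The Gadd45a fall kept a bound of 1.61-fold, and Gadd45g one of 1.20-fold, but without a filter on Cy5 Gadd45g had −0.22. Tet1, which oxidises 5-methylcytosine, fell by 0.60, from −0.24 to −0.81 in level, with 1 of 4 kept probes measured on both arrays. With dim Cy5 raised the Tet1 value was 0.51, so no bound can be given, without a filter on Cy5 it was −0.04, and the other pair had 0.36. Smchd1 and Cxxc5, a chromatin protein of X inactivation and a CG-binding protein, had folds of 0.22 and 0.07, of −0.04 and −0.35 at a common spread, and of −0.25 and −0.66 after normexp, the latter past the limit for a fall.

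Genes taken from the study's text and probe annotation, which were chosen with these samples in view, gave 5 kept regions. Synj2, an inositol phosphatase, fell by 2.45 and Bmp4, a secreted signal of the embryo, by 1.50, with bounds of 1.32-fold and 1.33-fold. Both were measured on both arrays at 1 probe, of 4 kept probes at Synj2 and of 9 at Bmp4. Sox2, a factor of neural stem cells, had a fold of −0.56 and Hs6st3, a heparan sulfate sulfotransferase, one of −0.05. Over the probes measured on both arrays, 5 of 13 at Sox2 and 6 of 11 at Hs6st3, the values were 0.14 and 0.43. At a common spread they were −0.61, past the limit for a fall, and −0.34. Tet1 is described above.

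**Figure D5:**
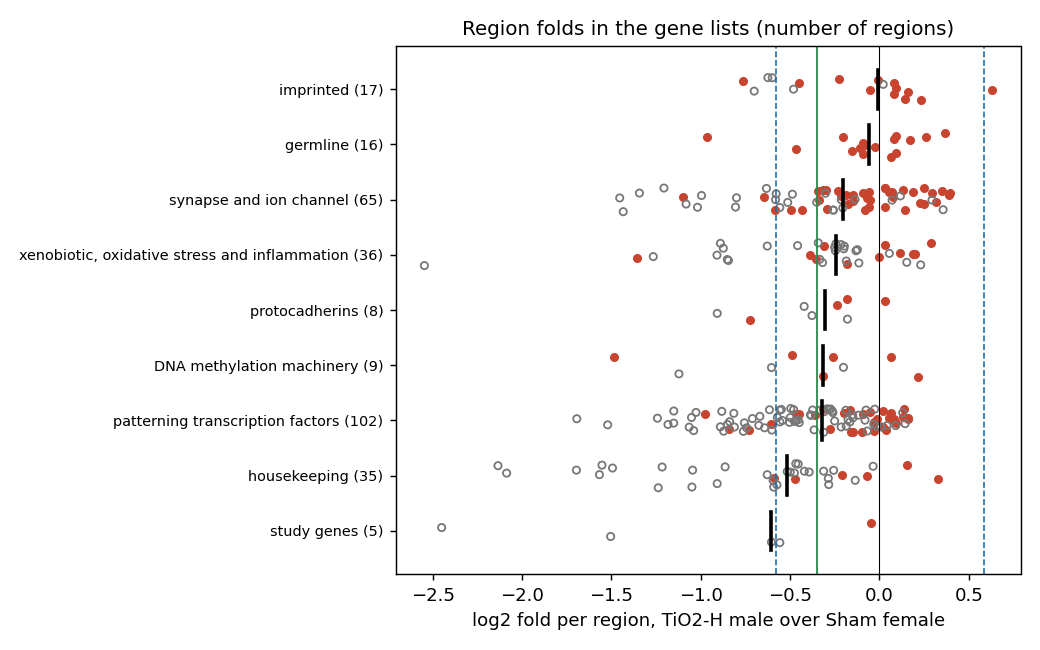
Region folds (log2, TiO2-H male over Sham female) in 9 gene lists, with the number of regions in parentheses. Filled points had at least 50% of their kept probes measured on both arrays, open points fewer, black bars are list medians, the green line is the median of all regions (−0.35) and the dashed lines are 1.5-fold and 0.67-fold. The germline and imprinted medians lie near 0 and the housekeeping median lies at −0.52, whereas at a common spread of the arrays these 3 medians are −0.68, −0.48 and −0.53.

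The other exposure pair, TiO2-H female over Sham male, had fewer falls. Of its 7750 regions, 543 (7.01%) fell and 191 (2.46%) rose, with a median fold of −0.07. In 7196 regions kept in both pairs, 58.2% had folds of the same sign. Of the 1981 of them that fell here, 272 fell in the other pair, which is 13.7% of the falls here and 55.4% of the 491 falls there, and 19 rose there. Over all 7196 regions, 27.5% fell here and 6.82% fell there. The slides were reversed between the pairs, as the TiO2-H array was on slide 1 here and on slide 2 there, whereas the TiO2-H array was at position 2 in both.

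Pools of the same exposure also differed. Sham male over Sham female had 9673 regions, of which 1965 (20.3%) rose and 1664 (17.2%) fell. TiO2-H female over TiO2-H male had 4529 regions, of which 2758 (60.9%) rose and 0 (0%) fell, with a median fold of 0.67. These comparisons share arrays with the exposure pair. Regions past the limits made up larger shares in both of them than the 33.7% in TiO2-H male over Sham female.

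Over the 2981 falls the median input difference was −0.12 (log2, centred), and 0 of these regions had input 1.5-fold or more higher on the TiO2-H male array, while 101 had it at 0.67-fold or below. Over all 8917 regions the median input difference was 0.006, and by the same limits 0 regions had higher and 128 had lower input. The MeDIP signal alone had a median difference of −0.66 over the falls, 1.27 over the rises and 0.15 over all regions. This signal is part of the fold that set the groups, so these values are a description.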

How the data were processed

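Genomic DNA of 4 pools was hybridised as MeDIP DNA (Cy5) and input DNA (Cy3) on Agilent 2-colour CpG island arrays without a dye swap. Per the file headers, the authors used Feature Extraction 10.7.3.1 and mm9 positions. The deposited processed intensity values are background-subtracted and dye-scaled. The deposited log10 ratio and its p-value come from single spots, and the series table differed from that log10 ratio by at most 5e-10. Ratios were recomputed as log2 of the deposited processed signals and centred on the 85850 autosomal probes. Probes with an outlier flag, 8 in this pair, were left out. Alternatives used limma 3.58.1 in R 4.3.3 and pandas 2.3.3. The region calls were tested on simulated data with planted shifts and little noise, which checks the code only. In this pair the median SD of probe folds within a region was 0.65 (log2). Dim Cy5 was not simulated, so the test does not speak to how reliable the calls are.

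The array files name no genes. Symbols came from the study's partly given probe annotation, read from page images, which lists probes high on the TiO2-H male array against Sham male. Further symbols, such as Dpep3 and Synj2, came from the study's list of genes with increased expression and decreased methylation in TiO2-H offspring. Of 5763 listed probes, 5188 were named through RefSeq, and 3170 of 8917 regions have a symbol. The lists are thus incomplete and lean towards probes of the first source, and names from the second lean the other way. Regions with a symbol fell in 30.0% of cases and those without one in 35.3%. Genes were named as the 10 highest and 10 lowest measured folds, the 5 strongest bounds, up to 2 highest and 2 lowest regions per list, and genes from the study's text and probe annotation; other names were added after their values were seen. A region that this rule selects is not reported here. The members and lists were chosen with earlier results of these data known. With 1 array per group, array number limits the precision.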

Additional observations from a re-analysis of the deposited data

Results flagged for a closer look

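In 3407 regions at least 50% of the kept probes were measured on both arrays in each exposure pair. Of these, 445 fell in TiO2-H male over Sham female and 126 rose past 1.5-fold in TiO2-H female over Sham male. The 8 regions that did both are given here. The difference between the pairs was not tested, since each pair is 1 array over 1 array. Eef1a2, a translation elongation factor of neurons, had a log2 fold of −0.89 here and 1.16 in the other pair. Its level was 1.40 on the Sham female, 0.58 on the TiO2-H male, −1.28 on the Sham male and 1.12 on the TiO2-H female array, so the Sham male array was the low one of 4. Rtn3, a reticulon of the endoplasmic reticulum, had −0.82 and 0.65, Sec23b, a vesicle coat protein, −0.80 and 0.70, Ermp1, a membrane peptidase, −0.70 and 0.82, and Marf1, a regulator of oocyte meiosis, −0.65 and 0.63. The Rn4.5s region, which belongs to a repeated small RNA gene and may share signal with its copies, had −0.83 and 0.62. The unnamed regions that start at chr6:48395263 and chr11:62478241 had −1.90 and 0.86, and −0.80 and 0.59. At Eef1a2, Rtn3, Rn4.5s and both unnamed regions the kept probes lay on both sides of 0 here. With dim Cy5 raised the chr11:62478241 value was 0.04, so no bound can be given.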

How the results depend on the processing

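The reported values were 21 rises, 2981 falls, a share of falls of 99.3% and a median log2 fold of −0.35. A gap of 500 bp and, added after seeing the data, input within 1.5-fold left both counts within 1.5 times, the median within 0.1 and the share within its Wilson interval. At a common spread there were 4 rises, 4494 falls, a share of 99.91% and a median of −0.58. After quantile normalization there were 5 rises and a share of 99.81%, and without centring 2 rises, a share of 99.95% and a median of −0.52. Normexp background correction (on median signals) gave 35 rises and a share of 98.90%. Loess gave 56 rises, 1287 falls, a share of 95.83% and a median of −0.24. With probes measured in Cy5 on both arrays there were 170 falls, a share of 89.95% and a median of 0.00016. The p-value filter gave 11 rises, a share of 99.65% and a median of −0.54. With 5 or more probes there were 2 rises, 1299 falls and a share of 99.85%, and the mean over probes gave a median of −0.47. With dim Cy5 raised to the limit there were 1007 rises, 309 falls, a share of 23.48% and a median of 0.17, where the limit is higher on the TiO2-H male array, so these rises are not measured ones. Without a filter on Cy5, added after seeing the data, there were 588 rises, 2046 falls, a share of 77.68% and a median of −0.11. Cy5 alone, also added after seeing the data, gave 1811 rises, 1767 falls, a share of 49.39% and a median of 0.15.

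Among the 61 regions named by rule, signs of called regions turned as follows. Other called regions are not listed, among them Psma1 and Sec63, which also lay above 0 with dim Cy5 raised. Normexp turned Ifnar1 (−0.22) and Pcdhga12 (0.098), and a common spread turned Klhl35 (−0.21). Use of only probes measured on both arrays turned Rpl31 (0.047), Dio3 (1.17), Rpl8 (0.16), Synj2 (0.040), Pcdhga12 (0.39), Gnas (0.29) and Pcdh7 (0.079). Raising dim Cy5 turned Tet1 (0.51), Kcnc2 (0.65), Dio3 (0.41), Pcdhga12 (0.31), Gnas (0.11) and Pcdh7 (0.67), Cy5 alone turned Tet1 (0.21), and no filter on Cy5 turned Dio3 (0.15) and chr18:80403331 (0.17). For the other changes the cause was not tested. Of 6 named rises, 0 stayed past the limit at a common spread or after normexp, 1 after quantile normalization and 2 without centring. With 1 array per group no replicate could be left out. No paired analysis was possible because each group has 1 array and no test was made.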

Other observations

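The 2471 X-linked probes, which the comparison leaves out, gave 314 regions under the same filters. Of these 71 (22.6%) fell and 0 rose, with a median log2 fold of −0.22 for TiO2-H male over Sham female. Among the 8917 autosomal regions 33.4% fell and 0.236% rose, with a median of −0.35. X-linked input lay at the same height relative to autosomes on these 2 arrays.

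Regions measured on at least 50% of their kept probes on both arrays in both exposure pairs numbered 3407. Of these, 445 (13.1%) fell and 8 rose here and 181 (5.31%) fell and 126 rose in the other pair, and 72 fell in both, which is 16.2% of the falls here and 39.8% of the falls there. Among these 72, Sec63, a protein of the translocation channel of the endoplasmic reticulum, had log2 folds of −1.89 here and −1.25 in the other pair at chr10:42481255-42482206 (mm9). Its level was 0.75 on the Sham female and 1.17 on the Sham male array, and −0.73 on both TiO2-H arrays. The Sec63 probe folds here ran from −3.48 to 0.02. With dim Cy5 raised the Sec63 value here was 0.02, so no bound can be given. The unnamed region chr4:129662643-129663672, with 8 kept probes, had folds of −1.60 and −1.33. These 2 regions were picked from the 12 lowest sums of both folds after their values were seen.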
